A study of Mus musculus with 23 samples.

Results

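Sterol and fatty acid synthesis was followed through 34 genes of the mevalonate, cholesterol and fatty acid synthesis pathways and their regulators, out of 41073 genes in the deposited count tables. The members were taken by name from a list that was chosen with earlier results of these data known. All 34 were found and passed the filter on low counts in every comparison. By role, 7 belong to the mevalonate and isoprenoid steps, 11 to the steps from squalene to cholesterol, 5 are regulators or sterol carriers, 6 supply acetyl-CoA and NADPH or build the fatty acid chain, and 5 desaturate or elongate it. The study sequenced bulk RNA of EpCAM-positive epithelial cells from the lungs of C57BL/6 wild type mice, grown on transwells with air above the cells, to ask how NTHi acts on epithelial regeneration. NTHi is the usual short name of non-typeable Haemophilus influenzae, a bacterium of the airways. There were 3 experiments, A, B and C, and 4 groups: freshly isolated untreated cells (3 libraries, 1 per experiment), untreated cells on the day of airlift (6 libraries), untreated control cultures at day 4 (7 libraries) and NTHi-treated cultures at day 4 (7 libraries). No allele or agent other than NTHi is named, and nothing in the labels says that libraries of 1 experiment came from separate animals or cultures, so each p-value measures only the spread between these libraries, which may be technical.

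Cells make cholesterol from acetyl-CoA, which is built up through mevalonate and isoprenoid units to squalene and is then closed into sterol rings and trimmed to cholesterol. Fatty acids are built from the same acetyl-CoA by carboxylation and repeated condensation, with NADPH as the reductant, and are then desaturated and lengthened for membranes and storage. The SREBP transcription factors, encoded by Srebf1 and Srebf2, drive most of these genes: SCAP escorts them out of the endoplasmic reticulum when sterol is low, and INSIG proteins hold them back when it is high. In the lung, alveolar type 2 cells use this chemistry for the phospholipids of surfactant.

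Levels are given as CPM, counts scaled to library size on 1 scale for all 23 libraries, and differences as log2 fold changes with their standard error (SE). A gene is said to have risen or fallen only where edgeR's quasi-likelihood test gave a Benjamini-Hochberg adjusted p below 0.05 over all genes tested. Library totals ran from 32323375 to 39081663 counts. The 10 most abundant genes took 23.4% to 23.9% of the counts in fresh cells and 7.72% to 9.95% in culture, and comparisons with fresh cells are also given with libraries scaled by their totals alone. Pan-epithelial markers summed to between 3690 and 6590 CPM in every library. None of the listed marker genes of any cell type was at 0 in every library of a group. Control replicate 1 and NTHi replicate 3 of experiment C stood apart from the other day 4 libraries on the second principal component (28.46 and 30.13, with the other 12 between -21.23 and 8.2), and results are also given without them where they differ. In bulk RNA, fewer cells of a type and less RNA per cell cannot be told apart.

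Promoter windows from RefSeq (build GRCm38.p6, 250 bases before to 50 after the annotated start) were matched by symbol for 28 of the 34 members. The 3 below are shown because Hmgcs1 is the member that holds the strict sterol regulatory element core, Cyp51 had the highest fold change with NTHi, and Fasn had the lowest at airlift. They lie at chr13:119690101-119690400 on the plus strand, chr5:4104648-4104947 on the minus strand and chr11:120824498-120824797 on the minus strand. Each reads 5′ to 3′ along its gene, and capitals mark the sterol regulatory element core TCACNCCAC and the NF-Y box CCAAT, which appears as ATTGG on the opposite strand.
Hmgcs1: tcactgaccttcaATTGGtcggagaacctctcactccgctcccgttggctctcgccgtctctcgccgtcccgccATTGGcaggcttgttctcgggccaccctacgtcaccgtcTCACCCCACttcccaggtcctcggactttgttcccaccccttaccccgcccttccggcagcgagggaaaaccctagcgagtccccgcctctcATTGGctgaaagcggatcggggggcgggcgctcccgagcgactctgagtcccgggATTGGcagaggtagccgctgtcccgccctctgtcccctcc
Cyp51: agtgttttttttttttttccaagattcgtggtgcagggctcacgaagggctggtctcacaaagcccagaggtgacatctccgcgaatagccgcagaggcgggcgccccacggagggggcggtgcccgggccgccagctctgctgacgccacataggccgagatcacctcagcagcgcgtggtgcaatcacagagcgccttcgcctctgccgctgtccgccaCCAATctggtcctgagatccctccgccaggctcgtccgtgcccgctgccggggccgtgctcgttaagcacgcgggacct
Fasn: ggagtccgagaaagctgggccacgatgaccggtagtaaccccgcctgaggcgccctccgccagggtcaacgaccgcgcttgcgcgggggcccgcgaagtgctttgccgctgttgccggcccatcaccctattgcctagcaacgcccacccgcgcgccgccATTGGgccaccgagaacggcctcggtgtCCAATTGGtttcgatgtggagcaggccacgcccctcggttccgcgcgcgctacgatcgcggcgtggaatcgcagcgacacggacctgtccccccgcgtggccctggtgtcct
The core match in the Hmgcs1 window is TCACCCCAC and starts 137 bases before the start. Boxes of the CCAAT type number 4 in the Hmgcs1 window, 1 in the Cyp51 window and 3 in the Fasn window, where a CCAAT and an ATTGG share 2 letters. Searched on both strands, CCAAT was in the window of 24 of the 28 members and of 41.1% of 27025 genes. GGGCGG, the GC box, was in 22 of the 28 and in 38.2% of all genes, and CACGTG, an E-box that reads the same on either strand, was in 6 and in 8.09%. TCACNCCAC was in 1 of the 28 and in 1.44% of all genes. A gene with several windows was counted if any of them matched. These are matches of letters, with no measure of binding.

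**Figure D1:**
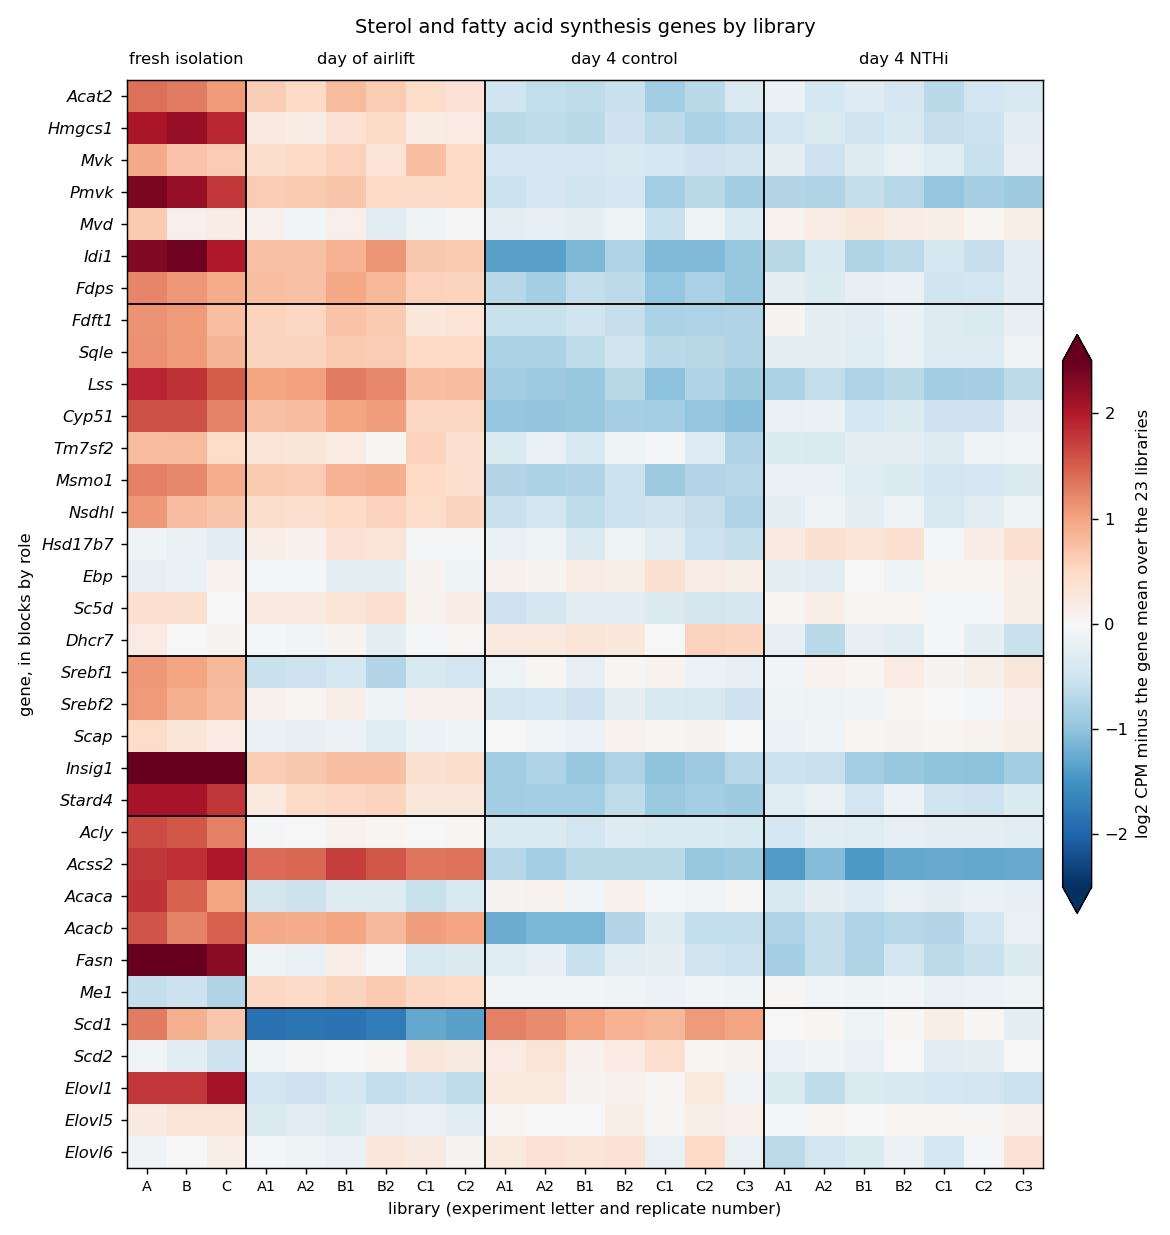
Heat map of the 34 genes (rows, in blocks by role) in the 23 libraries (columns, by group, experiment and replicate); colour is log2 CPM minus the gene's mean over the 23 libraries. Most rows are highest in fresh cells and lowest at day 4, while Scd1 is low at airlift and high in day 4 controls; with library totals as the scaling, 12 genes change the sign of their difference between airlift and fresh cells.

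From fresh isolation to airlift most members fell. Of the 34, 27 fell and 3 rose, against 36.7% and 37.9% of all 18302 genes tested, and their median log2 fold change was -0.51 against 0.003 for all genes. The 3 that rose were Me1, Scd2 and Hsd17b7. The largest falls were those of Fasn, Scd1 and Elovl1, each by more than 5-fold. Scaled by library totals alone, the median of all genes moved by 0.49 and the count became 8 higher and 15 lower, against 55.4% and 23.1% of all genes under that scaling. With it 12 members changed sign, 9 of them among the 27 that had fallen. Over the same step all 10 alveolar type 2 markers and all 6 club and secretory markers fell: their summed levels went from 84100–110000 to 1380–1470 CPM and from 165000–185000 to 19200–26900 CPM. All 6 multiciliated markers (492–790 to 109–216 CPM), all 4 lymphocyte, 3 of 4 endothelial and 3 of 6 basal markers also fell. Macrophage markers split into 1 higher and 6 lower of 9, alveolar type 1 into 3 and 5 of 8, and mesenchymal into 3 and 1 of 6. The part of these cell types in the members' change was not tested.

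Between airlift and day 4, 24 of the 34 members fell and 8 rose in untreated culture, against 27.7% and 26.9% of all genes. The median of the members was -0.64 and that of all genes -0.021. All 7 genes of the mevalonate steps and 9 of 11 of the squalene steps fell, while Scd1, Elovl1 and Elovl5 rose. Over the same interval 9 of 10 alveolar type 2 markers, 6 of 8 alveolar type 1 markers, 6 of 6 basal markers and 6 of 6 mesenchymal markers rose. Their sums went to 4060–4780, 3340–4020, 126–459 and 861–1040 CPM from 1380–1470, 2140–2720, 24.3–105 and 435–567 CPM. The mesenchymal list includes Plin2, which is also in the list of phospholipid and surfactant lipid genes described below. Of the 6 club and secretory markers 4 rose and 1, Scgb1a1, fell. Their sum, most of it Scgb1a1, went from 19200–26900 to 4010–5970 CPM. Of multiciliated markers 5 of 6 rose (109–216 to 190–437 CPM), and of lymphocyte markers 1 of 4. Macrophage markers split into 4 higher and 4 lower of 9, endothelial into 1 and 2 of 4, and pan-epithelial into 1 and 1 of 4. The part of these cell types was not tested.

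Compared with fresh cells, day 4 controls were lower in 27 members and higher in 3, against 37.7% and 38.8% of all genes. The members' median log2 fold change was -1.54 and that of all genes 0.017. With library totals alone the split was 8 higher and 24 lower, against 55.5% and 24.6% of all genes, and Hsd17b7, Scap and Elovl5 changed sign. All 10 alveolar type 2 markers, all 6 club and secretory markers and 5 of 6 multiciliated markers were lower in day 4 controls, with sums that went from 84100–110000 to 4060–4780 CPM, from 165000–185000 to 4010–5970 CPM and from 492–790 to 190–437 CPM. Higher were 5 of 8 alveolar type 1 markers (2030–2420 to 3340–4020 CPM), with 1 lower. So were 6 of 6 basal markers (47.3–142 to 126–459 CPM) and 5 of 6 mesenchymal markers (586–717 to 861–1040 CPM). All 4 lymphocyte and all 4 endothelial markers were lower. Macrophage markers split into 2 higher and 5 lower of 9, and pan-epithelial into 1 and 2 of 4. The mesenchymal markers, Plin2 among them, had a median log2 fold change of 3.07 and a lowest of 0.11. Their sum is weighted to abundant genes and moved less than that median. The part of these cell types in the change of the members was not tested. This comparison shares its libraries with the comparisons with airlift, so the 3 are not independent of each other.

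At day 4, NTHi cultures differed from controls in both directions. Of the 34 members 14 rose and 10 fell, against 20.1% and 20.4% of the 16337 genes tested, with a median of 0.12 against 0 for all genes. Of the 14 that rose, 11 were enzymes of the mevalonate and sterol steps and the others were Srebf1, Srebf2 and the sterol carrier gene Stard4, and 7 of the 10 that fell were genes of fatty acid synthesis; the other 3 that fell were Pmvk, Ebp and Dhcr7. The changes were small, from a log2 fold change of -1.05 for Scd1 to 0.60 for Cyp51, and the control and NTHi libraries did not overlap for 18 of the 34 members, against 15.9% of all genes tested. The counts without the 2 libraries that stood apart were the same, 14 and 10, against 20.5% and 21.2% of all genes. Tested within experiments, the counts were 13 higher and 8 lower in experiment A (9.63% and 10.8% of all genes), 11 and 5 in B (9.05% and 9.38%) and 11 and 3 in C (8.3% and 7.55%). All 24 called members kept the sign of their fold change in each of the 3. Alongside, 7 of 8 alveolar type 1 markers fell and 1 rose, and 6 of 9 macrophage markers fell and 1 rose. Of club and secretory markers 5 of 6 fell, as did 5 of 6 basal markers. Alveolar type 2 markers split into 4 higher and 5 lower of 10, pan-epithelial into 2 and 1 of 4, and mesenchymal into 1 and 2 of 6. Of multiciliated markers 1 of 6 fell, and of lymphocyte markers 2 of 3 tested. Endothelial markers split into 1 higher and 1 lower of 3 tested. The summed levels in control and NTHi cultures were 3340–4020 and 1500–1630 CPM for alveolar type 1, 4010–5970 and 2410–3010 CPM for club and secretory, 126–459 and 62.7–216 CPM for basal, 727–1530 and 205–794 CPM for macrophage and 4060–4780 and 3220–3560 CPM for alveolar type 2 markers. The part of these cell types in the members' changes was not tested.

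**Figure D2:**
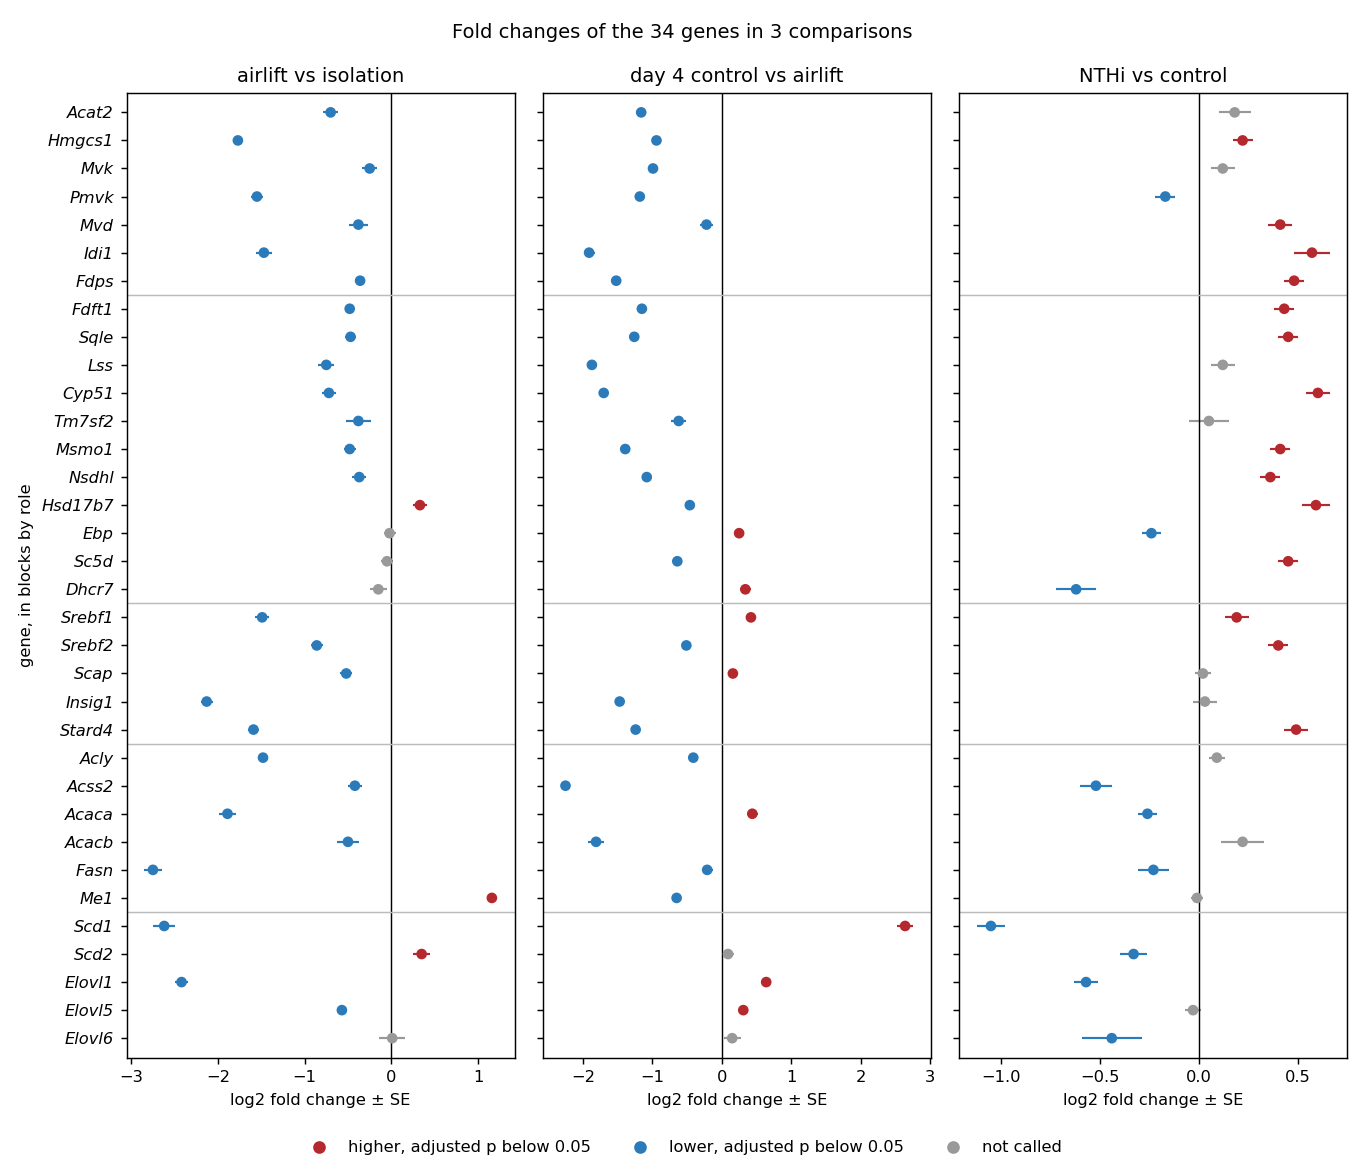
Log2 fold change with its SE for the 34 genes in 3 comparisons, with a horizontal scale of its own in each panel; red marks genes that rose, blue genes that fell, and grey genes that were not called. Between airlift and fresh cells nearly all points lie left of 0 (12 members change sign when libraries are scaled by their totals), and with NTHi the upper blocks lie mostly to the right of 0 and the lower blocks to the left.

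Among the regulators, Srebf2, which encodes the SREBP that favours sterol genes, stood at 484, 430 and 395 CPM in fresh cells of experiments A, B and C. At airlift it ranged from 214 to 261 CPM (median 248), in day 4 controls from 161 to 194 (median 170) and with NTHi from 211 to 252 (median 225). It fell at each step of untreated culture and rose with NTHi, with no overlap between neighbouring groups of the culture course or between control and NTHi. The log2 fold changes were -0.86 (SE 0.07) at airlift, -0.51 (SE 0.06) from airlift to day 4 and 0.40 (SE 0.05, edgeR adjusted p = 8.7e-06) with NTHi, where it was 0.32, 0.36 and 0.46 in experiments A, B and C.

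Srebf1, which encodes the SREBPs that favour fatty acid genes, took another course. It was at 326, 306 and 269 CPM in fresh cells, at 92.7 to 116 (median 109) at airlift, at 134 to 163 (median 141) in day 4 controls and at 147 to 187 (median 164) with NTHi. Fresh and airlift libraries were far apart, airlift and control libraries did not overlap, and control and NTHi libraries overlapped. Srebf1 fell by 1.49 on the log2 scale (SE 0.08) at airlift and rose by 0.42 (SE 0.07) to day 4. Its rise with NTHi was 0.19 (SE 0.06, edgeR adjusted p = 0.023) and was lost without any 1 of 4 libraries, namely control replicate 1 of B, control replicates 2 and 3 of C and NTHi replicate 2 of B, where the adjusted p was 0.054 to 0.057. With libraries scaled by their totals it was 0.13 (adjusted p = 0.17). The call was also lost without experiment B (edgeR adjusted p = 0.09) or C (0.15). Tested in A, B and C alone, the rise was 0.07, 0.20 and 0.25 and was called in none of them.

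Insig1, the anchor that holds the SREBPs back and itself a classical SREBP target, had the largest fall of all members over the whole culture. Its levels were 534, 556 and 497 CPM in fresh cells, 104 to 135 (median 126) at airlift and 39.7 to 48.7 (median 43.9) in day 4 controls. The 3 groups did not overlap, and day 4 controls were 12.1-fold below fresh cells (log2 fold change -3.60, SE 0.07, edgeR adjusted p = 1e-17). With NTHi it ranged from 39.2 to 55.3 CPM (median 43.6), within and on either side of the control range, and was not called (0.03, SE 0.06, adjusted p = 0.76). By experiment the values were 55.3 and 54.6 CPM against 43.9 and 46.7 in A, 44.7 and 41.4 against 41.4 and 46.9 in B, and 40.0, 39.2 and 43.6 against 39.7, 42.4 and 48.7 in C. Both NTHi libraries of A thus lay above all controls and those of B and C did not; the fold change tested in A alone was 0.28 (adjusted p = 0.038). The interaction of treatment and experiment had an unadjusted p of 0.034 for Insig1 and an adjusted p of 1 by edgeR.

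Scap, the escort protein gene, changed least among the regulators. It was at 121, 108 and 101 CPM in fresh cells, 71.1 to 81.9 (median 78.5) at airlift, 79.3 to 93.8 (median 88.0) in controls and 79.1 to 97.0 (median 91.4) with NTHi. The fall at airlift was -0.52 (SE 0.07) and nearly disappeared with library totals (-0.03, adjusted p = 0.68), the rise to day 4 was 0.16 (SE 0.05), a call lost without experiment A (edgeR adjusted p = 0.053) or B (0.052), and with NTHi Scap was not called (0.02, SE 0.04). Stard4, which carries cholesterol between membranes, went from a mean of 127 CPM in fresh cells to 42.7 at airlift and 18.1 in controls. It rose with NTHi to 25.5 CPM (log2 fold change 0.49, SE 0.06) without overlap, since the control libraries ended at 20.8 and the NTHi libraries began at 22.7 CPM.

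**Figure D3:**
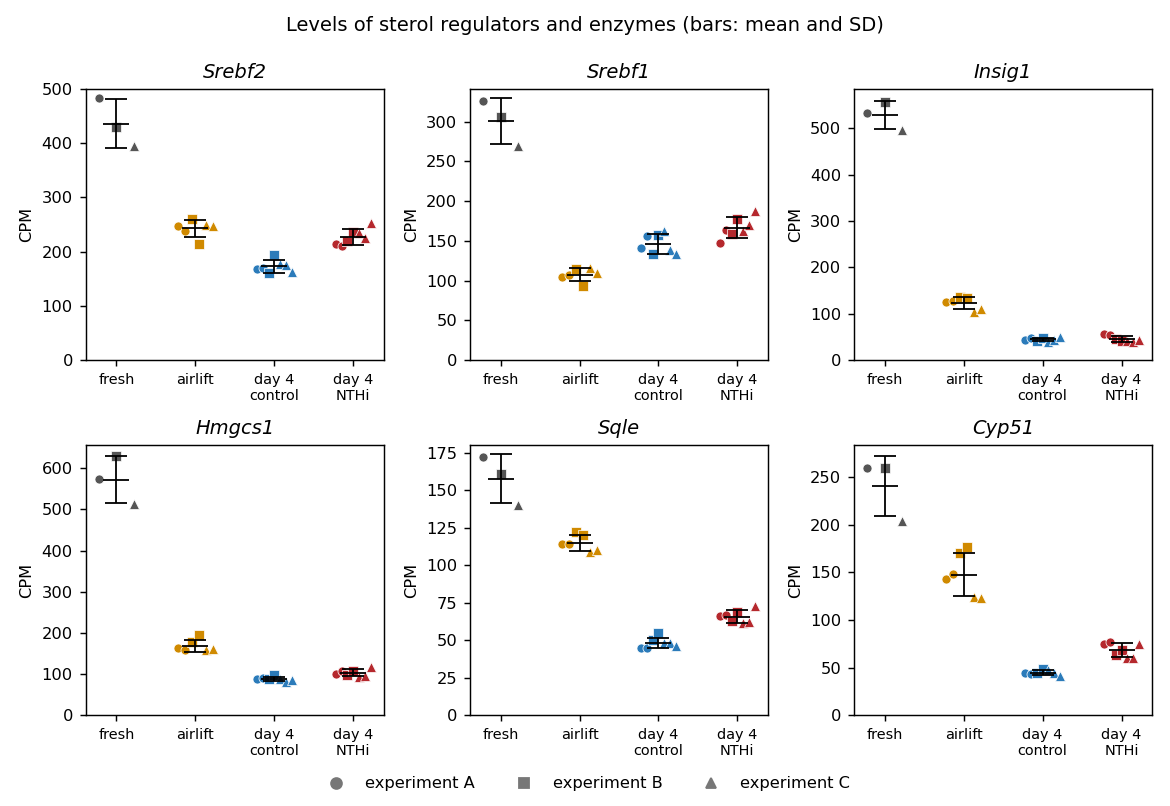
Levels (CPM, axes from 0) of Srebf2, Srebf1, Insig1, Hmgcs1, Sqle and Cyp51 in each library, with shapes for experiments and bars for the mean and SD of each group. All 6 are highest in fresh cells; Srebf2, Sqle and Cyp51 in NTHi cultures lie above every control library, and Insig1 overlaps with control (the fall of Sqle at airlift is not seen with library totals).

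Of the 7 genes of the mevalonate and isoprenoid steps, all fell at airlift (median log2 fold change -0.70) and all fell again to day 4 (-1.16). With NTHi 4 rose, 1 fell and 2 were not called (0.22). Of all genes tested 36.7% fell at airlift and 27.7% to day 4, and 20.1% rose and 20.4% fell with NTHi. Hmgcs1, the synthase that makes HMG-CoA, was at 574, 629 and 514 CPM in fresh cells, 159 to 195 (median 163) at airlift, 81.4 to 97.8 (median 88.2) in controls and 93.4 to 117 (median 101) with NTHi. Each step of untreated culture lowered it without overlap, and control and NTHi overlapped by a few CPM. Its log2 fold change was -1.77 (SE 0.05) at airlift, -0.94 (SE 0.04) from airlift to day 4 and 0.22 (SE 0.05, edgeR adjusted p = 0.0027) with NTHi. Within experiments the NTHi difference was 0.24, 0.15 and 0.26 in A, B and C, and it was called in none of them alone.

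Idi1, the isomerase that makes the reactive isoprenoid unit, fell over the whole culture by 3.38 on the log2 scale (SE 0.09), which is 10.4-fold. It was at 148, 160 and 120 CPM in fresh cells, 46.7 to 64.2 (median 49.6) at airlift, 11.6 to 17.4 (median 13.9) in controls and 17.7 to 24.8 (median 20) with NTHi. Neighbouring groups did not overlap, although the lowest NTHi library lay close above the highest control. The rise with NTHi was 0.57 (SE 0.09, edgeR adjusted p = 0.00015), made up of 0.83 in A, 0.24 in B and 0.62 in C. The interaction with experiment had an unadjusted p of 0.038 and an adjusted p of 1. Idi1 and Fdps have processed copies in the genome, so their counts may hold or lose reads of those copies.

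The other mevalonate genes kept to the same course with different depth. Pmvk, the kinase that adds the next phosphate after Mvk, had a mean of 126 CPM (SD 25.9, n = 3) in fresh cells and of 19.1 CPM (SD 2.45, n = 7) in controls. It was the mevalonate gene that fell with NTHi (-0.17, SE 0.05). That call was lost without experiment A (edgeR adjusted p = 0.10) or B (0.077) and with no experiment term (0.11). Tested in A, B and C alone, the fall was -0.26, -0.19 and -0.10 and was called in none of them. Fdps, which makes farnesyl diphosphate, fell by 1.52 (SE 0.05) from airlift to day 4 and rose by 0.48 (SE 0.05) with NTHi, from 36.5–47.0 to 50.4–63.6 CPM with no overlap. Mvd, the decarboxylase of the route, had the smallest change in culture (14.2 ± 1.40 CPM in controls against 21.4 ± 4.49 in fresh cells) and rose with NTHi by 0.41 (SE 0.06). Its fall from airlift to day 4 (-0.22, SE 0.09) lost its call without any 1 of 9 libraries (adjusted p 0.057 to 0.12): airlift replicate 1 of A, 1 of B and 1 and 2 of C, and control replicates 1 and 2 of A, 1 of B and 1 and 3 of C. Mvd also lost the call of its fall at airlift without the fresh library of experiment A (0.12). Mvk, the kinase of mevalonate itself, fell by 0.25 (SE 0.09) at airlift, a call also lost without that fresh library (0.21) and with no filter on low counts (0.076). When libraries were scaled by their totals, Mvk was higher at airlift than in fresh cells (0.23, edgeR adjusted p = 0.021). With that scaling Mvd (0.10, adjusted p = 0.4) and Fdps (0.13, adjusted p = 0.06) changed sign and were not called. The fall of Mvd from fresh cells to day 4 (-0.60, SE 0.11) also lost its call with it (-0.13, edgeR adjusted p = 0.27). Acat2, which joins acetyl-CoA units and shares sequence with its neighbour Acat3, fell at both steps and was not called with NTHi (0.18, SE 0.08, edgeR adjusted p = 0.072). It was called without control replicate 3 of experiment C (0.0073) or NTHi replicate 1 of C (0.037).

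From squalene to cholesterol, 7 of 11 genes fell, 1 rose and 3 were not called at airlift (median -0.38). Of all genes 36.7% fell and 37.9% rose there. From airlift to day 4, 9 of the 11 fell and 2 rose (-1.08), against 27.7% and 26.9% of all genes. With NTHi 7 rose, 2 fell and 2 were not called (0.41), against 20.1% of all genes that rose and 20.4% that fell. As a share of all counts these 11 genes took 0.0816% to 0.0988% in fresh cells and 0.0845% to 0.106% at airlift, and 0.0446% to 0.0505% in controls. Their fall from fresh cells to airlift is therefore seen on the scaled levels and not in the share of counts, and Fdft1, Sqle, Tm7sf2, Msmo1 and Nsdhl each changed sign or lay at 0 with library totals (0.00, 0.02, 0.10, 0.01 and 0.11). Lss and Cyp51 still fell with library totals, and the fall of the group from airlift to day 4 was seen on either scale. Tm7sf2, a sterol reductase of low level, lost the call of its fall at airlift (-0.38, SE 0.14) without the fresh library of A (adjusted p = 0.094) or of B (0.12).

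Sqle, the oxygen-dependent epoxidase of squalene, was at 172, 161 and 140 CPM in fresh cells, 109 to 122 (median 114) at airlift, 44.8 to 55.0 (median 48.0) in controls and 61.6 to 73.0 (median 66.5) with NTHi. The groups did not overlap. It fell by 1.26 (SE 0.05) from airlift to day 4 and rose by 0.45 (SE 0.05, edgeR adjusted p = 3e-06) with NTHi, by 0.57, 0.32 and 0.46 in the 3 experiments. Lss, which closes the epoxide into lanosterol, was at 144, 135 and 111 CPM in fresh cells, 64.9 to 95.4 (median 77.2) at airlift, 19.1 to 23.9 (median 20.9) in controls and 21.1 to 25.3 (median 22.8) with NTHi. It was among the 3 members with the lowest fold change from airlift to day 4 (-1.87, SE 0.07), and control and NTHi overlapped with no call (0.12, SE 0.06, adjusted p = 0.10).

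Cyp51, the demethylase of lanosterol, had the highest fold change of all members with NTHi. Its levels were 259, 259 and 204 CPM in fresh cells, 123 to 177 (median 146) at airlift, 41.6 to 48.4 (median 44.4) in controls and 59.9 to 76.6 (median 68.5) with NTHi. Every NTHi library was above every control, and every airlift library below every fresh one. It fell by 0.72 (SE 0.08) at airlift and by 1.70 (SE 0.07) to day 4, and NTHi cultures were 1.52-fold above controls (0.60, SE 0.06, edgeR adjusted p = 1.8e-06), with 0.79, 0.50 and 0.53 in experiments A, B and C.

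Hsd17b7, a ketoreductase of the step that strips methyl groups from the sterol ring, departed from its neighbours. It was at 41.9, 39.7 and 37.3 CPM in fresh cells, 44.1 to 58.2 (median 49.9) at airlift, 29.9 to 41.6 (median 37.0) in controls and 44.0 to 60.0 (median 57.0) with NTHi. It rose at airlift (0.33, SE 0.08), fell to day 4 (-0.46, SE 0.06) and rose with NTHi (0.59, SE 0.07, edgeR adjusted p = 7.5e-06) to levels that overlapped those at airlift. Its partners of the same step, Msmo1 and Nsdhl, fell from 120 and 46.0 CPM at airlift to 45.4 and 21.9 CPM in controls and rose with NTHi by 0.41 (SE 0.05) and 0.36 (SE 0.05). Fdft1, the squalene synthase, rose by 0.43 (SE 0.05) and Sc5d, a sterol desaturase, by 0.45 (SE 0.05), each without overlap, and Tm7sf2 was not called (0.05, SE 0.10).

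The late genes Dhcr7 and Ebp went the other way. Dhcr7, the reductase of the last step to cholesterol, was at 36.4, 31.1 and 32.8 CPM in fresh cells, 26.6 to 32.8 (median 30.6) at airlift, 31.7 to 46.9 (median 37.8) in controls and 19.6 to 30.4 (median 27.0) with NTHi. Control and NTHi did not overlap, and the fold change was -0.62 (SE 0.10, edgeR adjusted p = 0.00013), with -0.67, -0.52 and -0.66 in the 3 experiments. Ebp, a sterol isomerase, was at 45.2, 46.5 and 54.9 CPM in fresh cells, 44.2 to 54.5 (median 48.9) at airlift, 54.8 to 68.0 (median 58.0) in controls and 42.9 to 58.1 (median 51.4) with NTHi. It rose from airlift to day 4 (0.25, SE 0.05) and fell with NTHi (-0.24, SE 0.05), with overlapping ranges in the latter. Dhcr7 also rose from airlift to day 4 (0.34, SE 0.08). Against fresh cells it was not called in controls (0.19, adjusted p = 0.094), and was called without the fresh library of A (0.29, 0.037) or control replicate 1 of C (0.24, 0.013), and with no filter on low counts (0.25, 0.0067) or library totals (0.66, 3.3e-06). Dhcr7, Ebp and Sc5d, not called at airlift, were higher there than in fresh cells with library totals (0.34, 0.47 and 0.43).

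**Figure D4:**
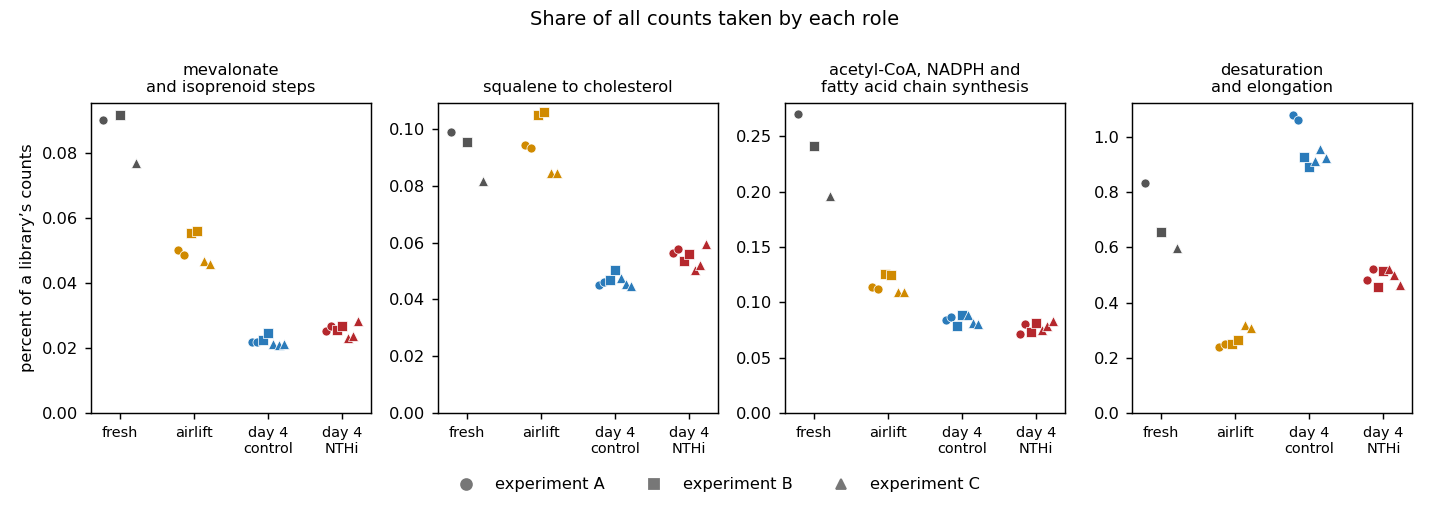
Share of all counts (percent, axes from 0) taken by 4 of the 5 roles in each library, with shapes for experiments; these shares use library totals and no other scaling. The mevalonate share falls from fresh cells to day 4, the squalene to cholesterol share is similar in fresh and airlift libraries and lower at day 4, and the desaturation and elongation share drops at airlift and with NTHi.

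Genes that supply acetyl-CoA and NADPH or build the fatty acid chain fell in 5 of 6 cases at airlift (median -0.99), and 1 rose. Of all genes 36.7% fell and 37.9% rose there. From airlift to day 4, 5 of the 6 fell and 1 rose (-0.53), against 27.7% and 26.9% of all genes. With NTHi 3 fell and 3 were not called (-0.12), against 20.4% of all genes that fell. Fasn, the synthase that assembles palmitate, had the lowest fold change of all members at airlift. It was at 2160, 1840 and 1430 CPM in fresh cells, 227 to 334 (median 272) at airlift, 203 to 258 (median 242) in controls and 169 to 231 (median 198) with NTHi. Fresh cells were far above the rest, and the 3 cultured groups overlapped in turn. The fall at airlift was 6.71-fold (-2.75, SE 0.10, edgeR adjusted p = 3.3e-14).

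The later changes of Fasn were small and fragile. It fell by 0.21 (SE 0.08, edgeR adjusted p = 0.038) from airlift to day 4, a call lost without any 1 of 7 libraries (adjusted p 0.052 to 0.11): airlift replicates 1 and 2 of B, control replicates 1 and 2 of A, 1 and 2 of B and 3 of C. It fell by 0.23 (SE 0.08, adjusted p = 0.030) with NTHi, a call lost without any 1 of 6 libraries (0.051 to 0.062): control replicates 1 and 2 of A, 2 of B and 1 of C, and NTHi replicate 1 of A and of B. In experiments A, B and C the NTHi difference of Fasn was -0.45, -0.20 and -0.11.

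Acaca, the carboxylase that commits acetyl-CoA to fatty acids, was at 214, 172 and 122 CPM in fresh cells, 42.0 to 49.1 (median 45.6) at airlift, 58.3 to 66.0 (median 62.6) in controls and 47.2 to 54.8 (median 52.1) with NTHi. None of the groups compared overlapped. It fell by 1.89 (SE 0.10) at airlift, rose by 0.44 (SE 0.08) to day 4 and fell by 0.26 (SE 0.05, edgeR adjusted p = 0.00025) with NTHi. Its paralog Acacb, which sits at mitochondria, was low throughout, with a mean of 15.2 CPM (SD 1.81, n = 3) in fresh cells and 3.22 CPM (SD 0.783, n = 7) in controls, with no call for NTHi (0.22, SE 0.11). Its fall at airlift (-0.50, SE 0.13) was not called without the fresh library of A (adjusted p = 0.054) or with library totals (-0.02).

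The 2 enzymes that make cytosolic acetyl-CoA had their larger fall at different steps. Acly, which splits citrate, fell early, from 923, 871 and 712 CPM in fresh cells to 287 to 314 (median 300) at airlift, and then reached 217 to 238 (median 230) in controls and 218 to 256 (median 247) with NTHi. The NTHi difference was not called (0.09, SE 0.04, edgeR adjusted p = 0.078), but was without NTHi replicate 1 of A (0.11, 0.016). Acss2, which activates acetate, fell late. It was at 43.9, 45.6 and 52.1 CPM in fresh cells, 32.4 to 42.7 (median 34.6) at airlift, 6.68 to 8.13 (median 7.92) in controls and 4.78 to 6.06 (median 5.31) with NTHi. Its fall from airlift to day 4 was the lowest fold change of all members there (-2.25, SE 0.07, 4.76-fold), and with NTHi it fell further by 0.52 (SE 0.08, adjusted p = 6.7e-05) without overlap. Its fall at airlift (-0.42, SE 0.08) turned to 0.07 with library totals. Me1, the malic enzyme that yields NADPH, ran counter to the group: 189, 196 and 170 CPM in fresh cells, 399 to 451 (median 412) at airlift, 260 to 274 (median 272) in controls and 250 to 292 (median 265) with NTHi. It rose by 1.16 (SE 0.06) at airlift and fell by 0.65 (SE 0.04) to day 4, still above fresh cells, and was not called with NTHi (-0.01, SE 0.03).

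**Figure D5:**
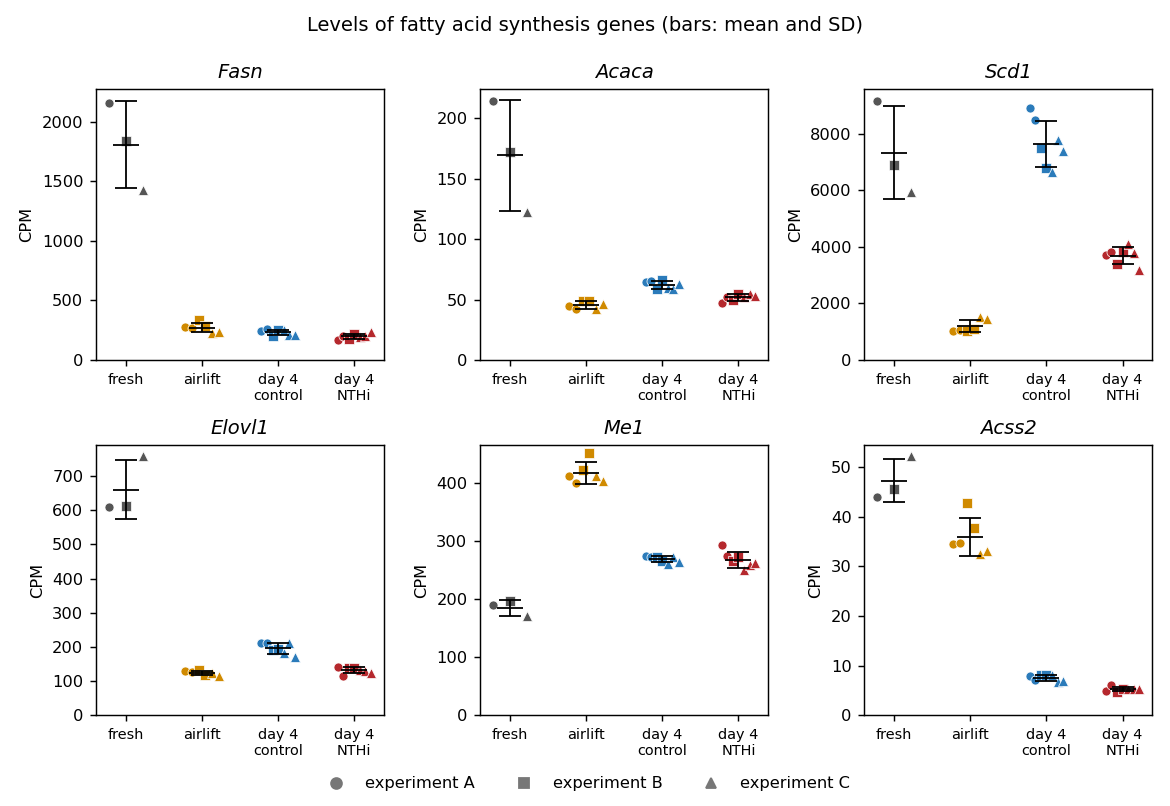
Levels (CPM, axes from 0) of Fasn, Acaca, Scd1, Elovl1, Me1 and Acss2 in each library, with shapes for experiments and bars for the mean and SD of each group. Scd1 is low at airlift, back at the fresh level in day 4 controls and about midway with NTHi, Me1 is highest at airlift, and Acss2 drops between airlift and day 4 (its small fall at airlift is not seen with library totals).

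Scd1, the desaturase that makes oleate and palmitoleate, had the highest fold change of all members from airlift to day 4 and the lowest with NTHi. It was at 9180, 6900 and 5950 CPM in fresh cells, 1030 to 1530 (median 1080) at airlift, 6660 to 8920 (median 7490) in controls and 3180 to 4110 (median 3800) with NTHi. Controls lay in the fresh range and far above airlift, and every NTHi library was below every control. Scd1 fell by 2.62 (SE 0.13) at airlift, rose 6.25-fold to day 4 (2.64, SE 0.12, edgeR adjusted p = 2.6e-12) and fell 2.07-fold with NTHi (-1.05, SE 0.07, adjusted p = 1.8e-08), with -1.21, -0.99 and -0.98 in experiments A, B and C. Day 4 controls were not called against fresh cells (0.02, SE 0.13), but were higher with library totals (0.50, adjusted p = 0.0017). The 34 members together took 1.11% to 1.28% of counts in controls and 0.661% to 0.744% with NTHi, and without Scd1 the other 33 took 0.341% to 0.397% and 0.315% to 0.368%.

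Scd2, a close paralog of Scd1 whose reads could in part be split with it, was steadier. It was at 971, 840 and 711 CPM in fresh cells, 973 to 1220 (median 1040) at airlift, 1040 to 1370 (median 1180) in controls and 835 to 1020 (median 922) with NTHi. It rose at airlift (0.35, SE 0.10), a call lost without the fresh library of C (0.22, adjusted p = 0.076), was not called from airlift to day 4 (0.09, SE 0.08) and fell with NTHi without overlap (-0.33, SE 0.07, edgeR adjusted p = 0.0011).

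Elovl1, the elongase of very long saturated chains, was at 610, 611 and 759 CPM in fresh cells, 116 to 132 (median 125) at airlift, 170 to 213 (median 193) in controls and 116 to 141 (median 133) with NTHi. Controls lay above both airlift and NTHi libraries without overlap. It fell by 2.42 (SE 0.08) at airlift, rose by 0.64 (SE 0.06) to day 4 and fell by 0.57 (SE 0.06, edgeR adjusted p = 1.2e-06) with NTHi. Elovl5, which lengthens polyunsaturated chains, had the same order at airlift and day 4 with smaller steps (-0.57 and 0.31) and was not called with NTHi (-0.03, SE 0.04). The fall of Elovl5 at airlift was not called with library totals (-0.09), and it was 0.26 below fresh cells at day 4 on the log2 scale and 0.21 above them with library totals. Elovl6, which lengthens palmitate, was near the lower end of the members' levels, at 7.29 to 11.7 CPM in controls and 5.28 to 10.7 with NTHi. It was not called at airlift (0.01, SE 0.15), from airlift to day 4 (0.15, SE 0.12) or in controls against fresh cells (0.16, SE 0.15). With library totals it was higher than in fresh cells at airlift (0.49, edgeR adjusted p = 0.0062) and in controls (0.63, 0.00072). Its fall with NTHi (-0.44, SE 0.15, adjusted p = 0.032) lost its call without any 1 of 10 libraries (adjusted p 0.055 to 0.077), those of experiments A and B and control replicate 2 and NTHi replicate 1 of C.

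Genes around these pathways gave a background for the members. In the list of other steps and regulators, 5 of 18 tested genes rose and 4 fell with NTHi, against 20.1% and 20.4% of all genes. At airlift 5 rose and 8 fell, against 37.9% and 36.7%. From airlift to day 4, 3 rose and 9 fell, against 26.9% and 27.7%. Mid1ip1, a binding partner that promotes polymerisation of acetyl-CoA carboxylase, fell with Acaca at airlift (-2.41, SE 0.07) and was 92.2 CPM in controls and 71.8 CPM with NTHi (-0.36, SE 0.06). Insig2, the second INSIG gene, rose at airlift (0.78, SE 0.05), opposite to Insig1, and by 0.13 (SE 0.04) with NTHi. Mbtps2, a protease that releases the SREBPs, rose by 1.51 (SE 0.08) at airlift and was not called with NTHi (0.03, SE 0.05). Acat1, the mitochondrial thiolase, fell in all 4 comparisons and by 0.48 (SE 0.05) with NTHi.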

How the data were processed

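Gene counts were used as the authors deposited them, whole numbers without normalization in 1 table for each of the 3 experiments. The tools STAR and DESeq2 and the build GRCm39 come per the submitters' processing notes. The tool that counted the reads is not given in the sources used here, nor is strand, so overlapping and antisense genes cannot be told apart. After 25 broken lines were dropped from each table, 41073 genes remained. Between 69.3% and 74.9% of the counts from 1 to 19 were even, so counts divided by 2 were tried as an alternative. The smallest differences between replicates exceeded sampling noise, and all 23 libraries were kept. Groups came from the labels.

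Levels (CPM) are counts scaled to TMM-adjusted library size. Tests used edgeR 4.0.16 in R 4.3.3 (filterByExpr with a minimum count of 10, TMM, quasi-likelihood F-test, group plus experiment, Benjamini-Hochberg over all tested genes, 0.05): NTHi against control on the 14 day 4 libraries, and the other comparisons on the 16 untreated libraries. Each SE is the size of the fold change divided by the square root of its F statistic. The scripts were tested on simulated data. The members and lists were chosen with earlier results of these data known. Values in every library are given for 9 fixed members and, in each comparison, for the 3 called members with the highest and the 3 with the lowest fold change, if their average log2 CPM was 2 or more. Genes named from neighbouring lists are among the 4 with the smallest p in a comparison described. Some genes of those lists are not reported here. Alternatives included DESeq2 1.42.0, other scalings, no filter, no experiment term, all libraries in 1 fit, leaving out libraries or experiments, and a replicate block. Promoter windows are from RefSeq on GRCm38.p6, another build than that of the counts, and no gene coordinates are given for GRCm39.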

Additional observations from a re-analysis of the deposited data

Results flagged for a closer look

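In each group of 6 or 7 libraries, the highest and the lowest level of each member were compared with the rest of the group by Dixon's gap criterion, which marks about 1 in 20 groups by chance. Of 102 such groups 4 held a library far from the others. Ebp, the sterol isomerase, reached 68.0 CPM in control replicate 1 of experiment C, with the next control at 59.9 CPM; this library also stood apart on the second principal component. Stard4, the sterol carrier, reached 20.8 CPM in control replicate 2 of experiment B, with the next control at 18.0 CPM. NTHi replicate 1 of experiment A had the lowest Acly level of its group, 218 CPM against 240 CPM for the next, and the highest Fdft1 level, 119 CPM against 102 CPM. The call of none of Ebp, Stard4 and Fdft1 in the NTHi comparison was lost without these libraries, and Acly was called without NTHi replicate 1 of A (edgeR adjusted p = 0.016).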

How the results depend on the processing

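Scaling by library totals alone moved the most. With it 8 members were higher and 15 lower at airlift than in fresh cells, against 55.4% and 23.1% of all genes. In day 4 controls 8 were higher and 24 lower than in fresh cells, against 55.5% and 24.6% of all genes. Members that changed sign at airlift were Mvk (0.23), Mvd (0.10), Fdps (0.13), Fdft1 (0.00), Sqle (0.02), Tm7sf2 (0.10), Msmo1 (0.01), Nsdhl (0.11), Ebp (0.47), Sc5d (0.43), Dhcr7 (0.34) and Acss2 (0.07), and in day 4 controls against fresh cells Hsd17b7 (0.34), Scap (0.12) and Elovl5 (0.21). The cause was not tested beyond the shift of 0.49 in the median of all genes. With NTHi, 5 members fell in experiment B alone (9.38% of all genes) and 3 in experiment C alone (7.55%), tests with fewer libraries. Leaving out each library in turn gave 13 to 15 members higher and 8 to 10 lower with NTHi, and 2 to 3 and 23 to 27 at airlift. It gave 8 and 22 to 24 from airlift to day 4, and 3 to 4 and 27 from fresh cells to day 4. The shares of all genes in these fits were 18% to 19.6% and 18.8% to 21.1% with NTHi, and 34.8% to 37.8% and 33.7% to 36.6% at airlift. They were 25.3% to 27.1% and 25.6% to 27.6% from airlift to day 4, and 35.9% to 39% and 34.9% to 37.9% from fresh cells to day 4. With the replicate block, 15 members rose and 10 fell with NTHi (18.2% and 18.4% of all genes). From airlift to day 4, 8 rose and 22 fell with it (27.1% and 25.4% of all genes), and Mvd and Fasn lost their calls there. Deviations of same-numbered control and NTHi libraries from the mean of their group and experiment correlated at 0.15 in A, 0.27 in B and -0.68, 0.25 and -0.49 in C. With 2 replicates the deviations mirror each other, so A and B give 1 value each, and C holds the 2 libraries that stood apart. These values therefore cannot decide whether same-numbered libraries are paired, and the labels do not say. DESeq2 called 14 members higher and 10 lower with NTHi, against 20.5% and 21.5% of all genes. The interaction of NTHi with experiment was called for 0 members by edgeR and by DESeq2, with 2 members at an unadjusted p under 0.05 by either tool. With NTHi the SE of the members ran from 0.03 for Me1 to 0.15 for Elovl6, and the part of depth in this range was not tested. In 1 fit of all 23 libraries Fasn lost its calls with NTHi and from airlift to day 4 (adjusted p = 0.058 in each) and Acat2 was called with NTHi (0.046).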

Other observations

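Lists of neighbouring lipid genes were tested in the same fits. Of all genes tested, 20.1% rose and 20.4% fell with NTHi, and 26.9% rose and 27.7% fell from airlift to day 4. Of 11 genes of fatty acid oxidation, 7 fell and 0 rose with NTHi by edgeR, while 6 rose and 0 fell from airlift to day 4. Cpt1a, which admits fatty acids to mitochondria, rose by 0.71 on the log2 scale (SE 0.04) from airlift to day 4 and fell by 0.75 (SE 0.05) with NTHi, to 59.4 CPM. Slc25a20, the carnitine carrier, had 31.1, 55.9 and 45.0 CPM in the same groups. Of 8 genes of sterol efflux and LXR targets, 6 rose and 1 fell from airlift to day 4. Abca1, the cholesterol exporter, rose by 1.68 (SE 0.09), and Ch25h, which makes an oxysterol that restrains SREBP processing, rose by 3.64 (SE 0.14), from 3.22 to 40.6 CPM. With NTHi 2 of these 8 rose and 4 fell, Ch25h to 20.8 CPM (-0.98, SE 0.18) and Abcg1, another sterol exporter, from 152 to 75.3 CPM (-1.02, SE 0.18). The sum of the 8 genes was lowest in control replicate 1 of C (700 CPM) and, with NTHi, in replicate 3 of C (434 CPM). The same 2 libraries had the lowest macrophage marker sums of their groups, 727 and 205 CPM. The part of macrophages in these falls was not tested.

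Of 13 phospholipid and surfactant lipid genes, 11 fell and 1 rose at airlift, against 36.7% and 37.9% of all genes. With NTHi 2 of them rose and 6 fell, against 20.1% and 20.4%. Lpcat1, which remodels surfactant phosphatidylcholine, fell by 3.67 (SE 0.07) at airlift, rose by 2.07 (SE 0.06) to day 4 and fell by 1.03 (SE 0.04) with NTHi, with group means of 1170, 92.6, 393 and 192 CPM from fresh cells to NTHi. Of 8 genes of sterol uptake and storage, 1 rose and 4 fell with NTHi, against the same 20.1% and 20.4% of all genes. Lipa, the lysosomal lipase that frees cholesterol from its esters, fell by 1.70 (SE 0.16), from 138 to 42.6 CPM, beside a summed macrophage marker level that went from 727–1530 to 205–794 CPM; the part of macrophages in the fall of Lipa was not tested.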
